A study of Mus musculus with 30 samples.

Results

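Adenosine deaminase (Ada) was followed over 15 adult tissues of the mouse. The gene was selected on its log2 ratios over these same arrays, so its levels are described here without a test. It was found on the array through the symbols paired with probe names in the study's own probe lists. It is 1 of the 25030 genes of the authors' value table, which gives 1 probe per gene, for Ada Z00003145-1. The array holds 2 probes of Ada among 42006 noncontrol probes. The second, Z00055843-1, was used as a second measurement of the same RNA. The tissues were 3 of the gut (small intestine, stomach and large intestine), brain cortex, cerebellum and eyes, the organs lung, heart, liver, kidney and bladder, and muscle, bone, fat and skin, taken from male C57BL/6 mice that were 28 weeks old per the labels (the study's methods give a slightly higher age), with no treatment or transgene named. Each tissue had 2 arrays, 30 in all, on which Cy3 carried the tissue RNA and Cy5 a reference shared by all arrays, which combined Stratagene Universal Mouse Reference RNA (made from cell lines) with RNA of MC1 embryonic stem (ES) cells. The dyes were never exchanged. The study's notes say that replications came from different animals but name a single one for bone and fat, so what the spread between their 2 arrays covers is uncertain.

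Ada removes the amino group of adenosine and deoxyadenosine, which become inosine and deoxyinosine. The enzyme thereby ends signalling by extracellular adenosine, keeps deoxyadenosine from building up in lymphocytes and feeds purines into salvage or breakdown. Human inherited loss of ADA causes severe combined immunodeficiency. In the adult mouse the enzyme is known to be abundant in the mucosa of the upper digestive tract and in the thymus, a tissue not analysed here. The gene (gene ID 11486) lies on the minus strand at chr2:163726571-163750239 in GRCm38.p6. Both probes are 60 bases long, and the array's design files give neither a genome position.

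The probe sequences are shown because every value of Ada below comes from them. Of Z00003145-1 only bases 31 to 60 are printed, and the capitals mark AATAAA, the letters of the common polyadenylation signal, which 6.93% of the 42006 probes on the array hold on the same strand. Z00055843-1 holds none.
Z00003145-1, last 30 bases: ctaaaattatggtgttcAATAAAgcagctg
Z00055843-1: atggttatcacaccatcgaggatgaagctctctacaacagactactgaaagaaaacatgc
The longest run of bases that either shares with any probe outside the pair is 15 for Z00003145-1 and 17 for Z00055843-1.

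Arrays differed in brightness and in how close they lay to their replicate. Median Cy3 signals ran from 85.7 to 175 scanner units per array, and the correlation of replicates across probes between 0.671 and 0.991 with a median of 0.980. Large intestine replicate 1 was closer to small intestine replicate 2 (r = 0.895), which lay on the same slide, than to its own replicate (r = 0.798). Fat replicate 1 was closer to bladder replicate 1 (r = 0.705) than to its own (r = 0.671). The Cy3 signal of Ada was well above background on 30 of 30 arrays with either probe.

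Ada was highest in small intestine, then stomach, then large intestine, and was lower in all the other 12 tissues. Values are log2 of Cy3 over Cy5 after loess normalization of each array. The value 0 is thus the trend of an array's probes at that brightness, not an equal amount of RNA in tissue and reference. With Z00003145-1 the small intestine arrays read 5.15 and 5.48. Stomach read 3.16 and 3.65. Large intestine read 2.08 and 1.36. No array of any of the other tissues was above -0.24, so the arrays of these 3 tissues overlapped neither each other nor the rest. These are whole organs, in which more cells that express Ada and more Ada RNA per cell cannot be told apart.

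Among the other 12 tissues the values fell by 2.60 on the log2 scale from bladder to cortex, a 6.04-fold range. Bladder read -0.48 and -0.24, and bone -0.57 and -0.49. Fat read -1.34 and -1.21, with a mean of -1.28 ± 0.10 (SD, n = 2). Liver had a mean of -1.33 ± 0.22, lung -1.45 ± 0.23, skin -1.62 ± 0.12, kidney -1.80 ± 0.21, heart -2.02 ± 0.11 and muscle -2.06 ± 0.07. Eyes, cerebellum and cortex were the lowest. Their means were -2.77 ± 0.23, -2.88 ± 0.11 and -2.96 ± 0.04.

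Neighbours in this order were called apart when their arrays did not overlap and their means differed by more than 2 times the SD of the probe pooled over tissues (0.22). This rule describes an order that was sorted on the same values, and is not a test. Of 14 neighbouring pairs, 5 were apart. These were small intestine over stomach, stomach over large intestine, large intestine over bladder, bone over fat and muscle over eyes. Bladder and bone did not meet the rule, nor did any neighbours in the run from fat to muscle, nor eyes, cerebellum and cortex.

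**Figure D1:**
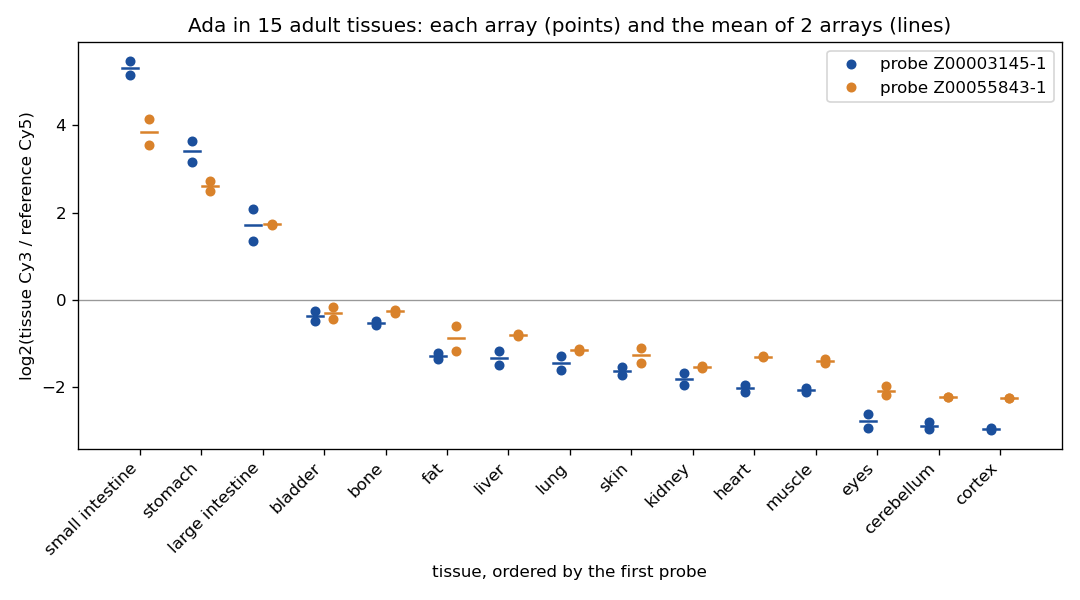
Ada in 15 adult tissues, as log2 of tissue Cy3 over reference Cy5 on the vertical axis, for both probes, with a point per array and a line at the mean of 2 arrays. Small intestine (5.15 and 5.48 with Z00003145-1), stomach and large intestine stand above the other 12 tissues with both probes.

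The second probe gave a similar order, with smaller differences in the log2 ratio. With Z00055843-1 the small intestine arrays read 3.55 and 4.15, stomach 2.50 and 2.73, and large intestine 1.75 and 1.73. Bone (-0.23 and -0.29) and bladder (-0.44 and -0.15) came next. Cortex was again last, at -2.24 and -2.25. Over the 15 tissue means the 2 probes had a Pearson r of 0.996, a description of 2 probes on the same arrays. Of 14 neighbouring pairs 5 were apart with this probe too (pooled SD 0.18), the first 3 steps of the gut among them. Small intestine exceeded cortex by 8.27 on the log2 scale (309-fold) with Z00003145-1 and by 6.10 (68.5-fold) with Z00055843-1. On the Cy3 level alone, without the reference, the same difference was 8.28 (312-fold) and 8.05 (264-fold).

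Against the mean of the other 14 tissues, small intestine was higher by 6.45 on the log2 scale with Z00003145-1 and by 4.64 with Z00055843-1. On Cy3 alone these leads were 6.67 and 6.88, so the smaller lead of the second probe was present in the ratio and not in Cy3. For Z00003145-1 the difference ranked 20 among the 21019 probes of the value table that passed the filter on dim probes, and 3 among the 5049 of these with a symbol. Stomach was higher than the mean of its other 14 tissues by 4.40. Small intestine exceeded stomach by 1.91 (3.77-fold) and large intestine by 3.60. Over stomach the second probe gave 1.24, and on Cy3 alone the probes gave 2.24 and 3.03. Of the sum of the linear ratios over the 15 tissue means, small intestine held 68.8%, stomach 18.3% and large intestine 5.70%. Tissue specificity, as the information in those shares, was 2.34 bits of a possible 3.91, against a median of 0.159 bits over all probes past the filter. Among the 288 probes with a symbol whose highest mean was in small intestine, Ada ranked 2 by information. It ranked 19 among all 1290 probes highest in small intestine and 218 among the 21019.

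The level relative to the reference in large intestine depended on normalization. Centring each array on its median in place of loess put large intestine at 0.84 and -0.11, and its lead over bladder at 1.19 in place of 2.08. The order of the first 3 tissues was the same under every alternative run. Without large intestine replicate 1, the array that resembled small intestine, the lead over bladder was 1.72.

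Arrays of small intestine lay on slides 7 and 8. On slide 7, small intestine replicate 1 exceeded the muscle array by 7.26 and the mean of 2 skin arrays by 6.77. On slide 8, small intestine replicate 2 exceeded the mean of both stomach arrays by 2.08 and large intestine replicate 1 by 3.40. The lead of small intestine was thus present within each slide, for the tissues that shared one.

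In the Cy3 signals behind the ratios the 3 gut tissues again came first, followed by bladder, while the order of the remaining tissues differed in part. With Z00003145-1 the dimmest array was one of heart, and with Z00055843-1 one of eyes. Cy5 was higher in small intestine as well. In Cy3, Z00003145-1 read 47998 and 25974 scanner units in small intestine, 7112 and 10293 in stomach, and 133 to 1888 in the other 13 tissues. The lowest of these was still 2.28 times the median negative control of its array. In Cy5, where every array carried the same reference, the small intestine arrays read 4050 and 3856 against a median of 2233 over the 13 tissues other than small intestine and stomach, 1.77 times as much, and stomach (2761 and 2583) was 1.20 times as high but within the range of those tissues (1640 to 2779). With Z00055843-1, Cy5 in small intestine was 8.54 times and in stomach 2.12 times the median of the same 13 tissues (728). Over 14656 probes with Cy5 well above background on all arrays, the same quotient for small intestine had a median of 0.964, with 5% of the probes below 0.852 and 5% above 1.12, and 1.31% of them reached that of Z00003145-1. A higher denominator makes a log2 ratio smaller. The part of the Cy5 rise in the ratios of Ada was not tested.

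**Figure D2:**
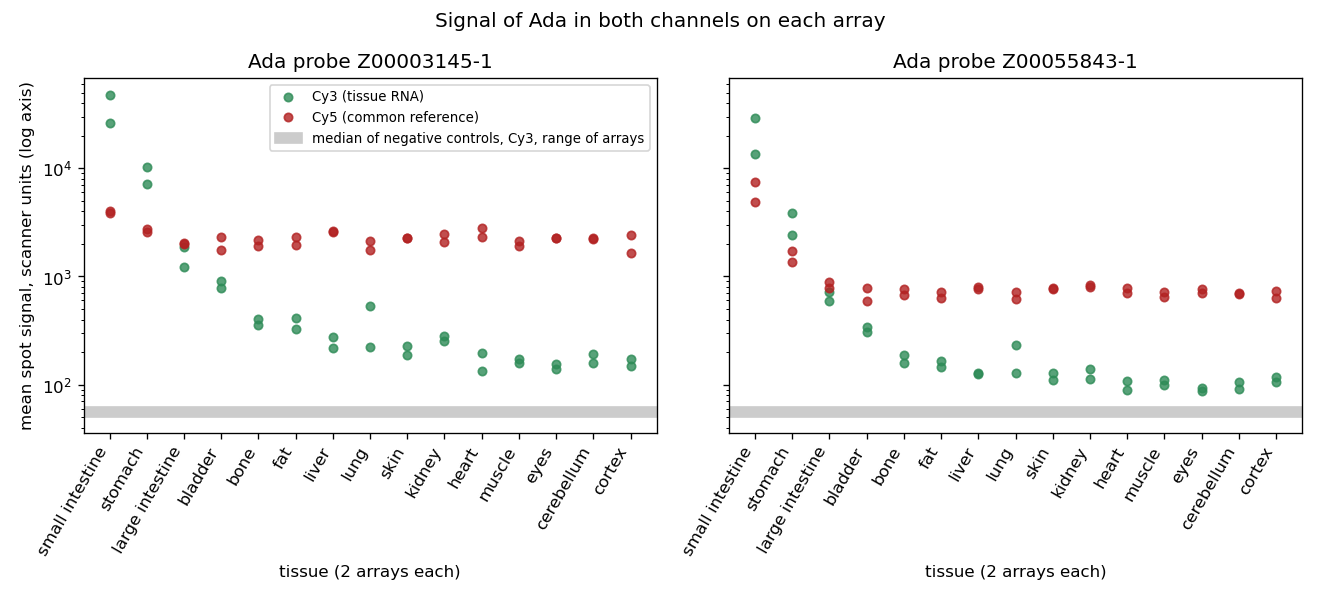
Mean spot signal of Ada in scanner units (log axis) on each array, with tissue RNA (Cy3) in green, the common reference (Cy5) in red and the range of the median negative controls as a grey band, one panel per probe. Cy3 falls from 47998 units in small intestine to 133 in heart with Z00003145-1, and Cy5 is highest in small intestine with both probes.

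Marker genes of cell types that these organs hold were read on the same arrays. Of the enterocyte list, 5 of 23 genes had a named probe, and the sum of their linear ratios was 594 to 854 in small intestine, 46.5 to 303 in large intestine, 25.8 to 36.6 in stomach and 4.05 to 37.4 elsewhere. Villin (Vil1), of the brush border, was high in small intestine (5.46), stomach (4.61), large intestine (5.37) and also kidney (4.99), where Ada was at -1.80. Sucrase-isomaltase (Sis), which digests sugars on small intestinal enterocytes, read 9.02 and 9.51 in small intestine. It was not well above background in stomach, where Ada was at 3.40. Sis alone made up most of the summed ratio in small intestine and in large intestine replicate 1. In large intestine Sis read 7.91 in replicate 1 and -0.46 in replicate 2, where it was not well above background, whereas Ada read 2.08 and 1.36. With median centring the latter array of Ada read -0.11. On the stomach arrays and that array of large intestine, 3 other genes of the enterocyte list were well above background, with Vil1 at 4.83, 4.39 and 5.12, Alpi at 2.13, 0.78 and 3.03 and lactase (Lct) at 1.15, 0.79 and 0.83, and Akp3 was not. Lct was higher in cortex (3.82 and 2.36), where Ada was lowest.

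Stratified epithelium, which lines the forestomach of mice and forms the epidermis, was represented by 4 of 15 genes, with a summed linear ratio of 140 to 150 in stomach, 3.53 to 4.04 in large intestine, 2.97 to 3.13 in small intestine and 2.54 to 107 elsewhere. Keratin 10 (Krt10) was at 4.65 in stomach and 5.44 in skin, and the protease inhibitor Serpinb2 at 4.32 and 5.77, while Ada was 3.40 in stomach and -1.62 in skin. Serpinb3c was at 6.52 in stomach and 0.68 in skin, and Sprr1a at 2.97 and 3.02 on the stomach arrays, 1.85 in skin and 3.25 in bladder. Krt10 and Serpinb2 were thus high in skin where Ada was low, and Serpinb3c was not. No marker of gastric glands (0 of 9) had a named probe, so the glandular stomach could not be checked.

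Of the lymphocyte list only Ptprc (CD45), 1 of 13, had a probe, at -0.83 in small intestine, -2.70 in stomach, 0.56 in lung and -0.05 in bone. Of the colon list 3 of 8 had one, with sums of 167 to 178 in large intestine, 43.8 to 48.3 in stomach, 12.6 to 56.4 in small intestine and 1.49 to 108 elsewhere. Mptx1, a marker of colon, was at 6.70 in large intestine but also at 5.74 and 3.36 in the small intestine arrays. Pancreatic amylase Amy2a5, 1 of 10 markers of exocrine pancreas, read 2.50 and 2.01 in stomach, with a ratio summed over the list of 4.04 to 5.68 there and at most 1.30 elsewhere. The part of these cell types in the levels of Ada was not tested.

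**Figure D3:**
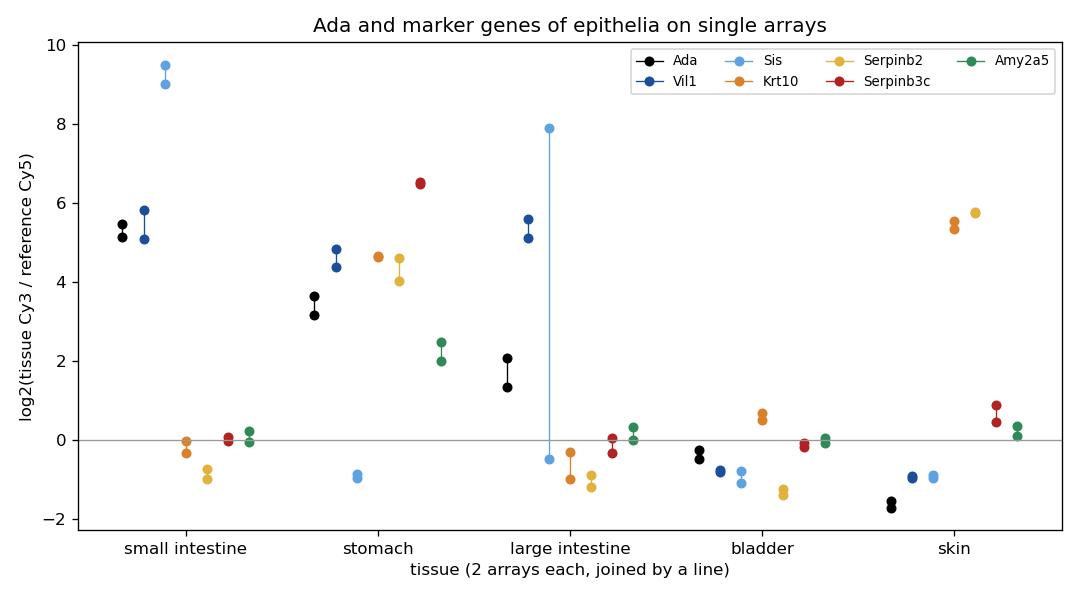
Ada and 6 marker genes on single arrays of 5 tissues, as log2 of tissue Cy3 over reference Cy5, with the 2 arrays of a tissue joined by a line. Krt10 and Serpinb2 are high in stomach and skin while Ada is high in stomach and low in skin, and Sis differs between the large intestine arrays (7.91 and -0.46).

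The question of which other genes of adenosine and purine metabolism vary over the same tissues was addressed with a list of 73 genes besides Ada, covering enzymes that form or use adenosine, its receptors and carriers, and purine synthesis. Of these, 21 had a named probe and 20 passed the filter, so 52 genes were not analysed here, among them all 7 nucleoside carriers and Dpp4, a surface protein that binds ADA in humans. A moderated F-test (limma, Benjamini-Hochberg adjusted over 21019 probes) found differences among tissues for 19 of the 20, where 90.7% of all probes passed the same test. The exception was the placental-type phosphatase gene Alppl2 (adjusted p = 0.265), which was well above background on 4 arrays. In small intestine Alppl2 differed by 0.60 (limma adjusted p = 0.151). It was called there with a smaller offset (1.11), the scanner's log ratio (2.88) and the authors' table (2.55). Its 4 bright arrays were both of small intestine, liver replicate 2 and fat replicate 1. Alppl2 thus passed the filter through small intestine alone, so these differences were set mostly against background and are a description.

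In small intestine 6 of the 20 genes were higher and 1 was lower than the mean of the other 14 tissues, at an adjusted p under 0.05 and a log2 difference of at least 1. One of the 6, Alpi, passed the filter through the gut alone. By the same rule 11.2% of all probes were higher and 9.77% lower. The median difference of the 20 genes was 0.34, against -0.10 over all probes. In stomach 2 were higher and 1 lower, against 9.23% and 5.34% of all probes, and the median was 0.03 against -0.09. With so few genes the shares are a description. The calls over all 21019 probes moved with the setting as well. In small intestine the main fit had 2360 higher and 2053 lower. At an adjusted p alone these were 4081 and 5532, beside 8 and 5 of the 20 genes. With the scanner's log ratio they were 3099 and 3343 (8 and 2 genes), and with median centring 1726 and 2409 (5 and 2). In stomach 1941 and 1123 became 3493 and 3896 at an adjusted p alone, beside 5 and 4 genes.

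Of the enzymes that form adenosine outside the cell, intestinal alkaline phosphatase (Alpi), which strips phosphates from nucleotides in the gut lumen and is also one of the enterocyte markers, had the largest difference among the genes called higher. It read 3.69 and 4.39 in small intestine, 3.47 and 3.03 in large intestine, and 2.13 and 0.78 in stomach. On the 24 arrays of the other 12 tissues it was not well above background. The gene passed the filter on dim probes through its gut arrays alone, so the fitted difference of 3.68 in small intestine (limma adjusted p = 1.77e-10) was set mostly against background and is a description. It was 2.18 with median centring and 6.73 on Cy3 alone. On the Cy3 level scaled between arrays (means of 14.13 and 6.25 in log2), small intestine exceeded the 12 tissues at least 222-fold. Both sides of this value are Cy3, and it was not checked with the dyes exchanged. In unscaled signals, background included, small intestine (4760 and 12329 scanner units) was 145 times the median of the 13 tissues other than itself and stomach (59). Its Cy5 signal in small intestine was 34.6 times the median over the 13 tissues other than stomach and small intestine. In stomach the difference was 0.91 ± 0.22 (limma adjusted p = 0.00319), below the size for a call. It passed that size with a smaller offset (1.39), with the scanner's log ratio (2.85), in the authors' table (2.72), with the other gut tissues left out (1.43) and without stomach replicate 2 (1.58). It was smaller and did not pass the test on Cy3 alone (0.43, adjusted p = 0.152), with slide as a random block (0.59, adjusted p = 0.159) and without stomach replicate 1 (0.24, adjusted p = 0.485). Akp3, another intestinal phosphatase, did not pass the filter (mean 0.55 in small intestine), and Entpd6, a nucleoside diphosphatase, differed by 0.32 in small intestine (limma adjusted p = 0.119).

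Adenosine also arises when S-adenosylhomocysteine is split, and the list around that step had 4 genes with a probe, of which 2 were higher in small intestine (11.2% of all probes were). Ahcy, the hydrolase itself, read 1.28 and 1.29 there, against 4.18 and 4.40 in liver, 2.65 and 2.44 in kidney, and 0.86 and 1.34 in large intestine. No array of the other 11 tissues was above -0.28. Small intestine exceeded the mean of the others by 1.38 ± 0.11 (limma adjusted p = 1.01e-08), while another probe of Ahcy gave 0.79. In stomach the value was -0.63 ± 0.11, which did not reach the size for a call. Ahcyl2, a related protein, was among its highest values in both tissues, at 2.87 and 2.85 in small intestine and 2.68 on both stomach arrays, near kidney (mean 2.95). It was higher than the other tissues by 1.39 ± 0.18 in small intestine (limma adjusted p = 3.33e-06) and by 1.20 ± 0.18 in stomach (limma adjusted p = 3.02e-05), the latter 0.98 with slide as a random block. Ahcyl1 (0.85) and Mat2a (-0.89), the latter an enzyme that makes S-adenosylmethionine, were not called in small intestine. Mat2a was called with median centring (-1.01) and with slide as a random block (-1.18), and Ahcyl1 with a smaller offset (1.03), the scanner's log ratio (1.02) and the authors' table (1.02).

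The receptors of adenosine differed in where they were high. Adora2b, the low-affinity receptor, read 1.55 and 1.96 in small intestine, close to bladder (2.00 and 2.27) and skin (1.49 and 1.26), and -1.24 and -0.96 in stomach. Its difference was 1.93 ± 0.16 in small intestine (limma adjusted p = 1.06e-08) and -1.13 ± 0.16 in stomach (limma adjusted p = 1.47e-05). It was thus higher in one tissue with much Ada and lower in the next. A second probe gave 1.94 and -0.87, and without stomach replicate 1 or on Cy3 alone the stomach value no longer reached the size for a call. Adora1 read 3.91 and 3.60 in stomach and was higher there by 1.25 ± 0.14 (limma adjusted p = 1.57e-06), with liver, cortex and cerebellum as high or higher. The call was lost with median centring (0.86), with the scanner's log ratio (0.47, adjusted p = 0.362) and in the authors' table (0.49), and the other probes of Adora1 gave 0.61 and, for a probe not well above background on any array, -0.05. In small intestine Adora1 differed by -0.91 (limma adjusted p = 3.96e-05), below the size for a call, which it passed on Cy3 alone (-1.72), and by 0.18 with the scanner's log ratio. Adora2a was highest in cortex (2.95) and did not reach the size for a call in stomach, at -0.99 ± 0.28 (limma adjusted p = 0.00958). It did so with slide as a random block (-1.09), a smaller offset (-1.26), the scanner's log ratio and the authors' table (-2.41 in each), without the other gut tissues (-1.10) and without any 1 of lung replicate 2, heart replicate 2, fat replicate 1 and bone replicate 2 (the last giving -1.05). In small intestine Adora2a differed by -0.66 (limma adjusted p = 0.0614), and was called with the scanner's log ratio and the authors' table (-1.02 in each).

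Next came enzymes beside and after Ada. Adenosine kinase (Adk), which takes adenosine back to AMP, read 2.76 and 2.97 in liver and -0.70 and -0.68 in small intestine, where the difference of -0.60 ± 0.35 did not pass the test (limma adjusted p = 0.179). With slide as a random block it was -1.09 (adjusted p = 0.00503), and -1.33 in stomach (adjusted p = 0.00424). Large intestine differed between its arrays for Adk, at 0.08 and -2.38. Urah, which acts after uric acid is oxidised, was higher in small intestine by 1.29 ± 0.28 (limma adjusted p = 0.000849), with values of 1.05 and 1.07, while liver read 4.37 and 4.42 and skin 3.62 and 3.09. The tRNA adenosine deaminase Adat1, the AMP deaminase Ampd2 and the inosine triphosphatase Itpa were not called in either tissue, with Itpa at 0.65 in small intestine and 0.76 in stomach (1.05, a call, without stomach replicate 1).

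Adenylosuccinate synthase, which commits inosine monophosphate to AMP, has 2 genes, and they differed in opposite directions. Adss1, the form known from muscle, read -3.52 and -3.46 in small intestine and -3.53 and -3.20 in large intestine, below every array of the other 13 tissues, and was highest in muscle (5.37 and 5.53). Small intestine was below the mean of the others by 4.82 on the log2 scale (a difference of -4.82 ± 0.16, limma adjusted p = 6.05e-14). Adss2, the form of most other tissues, was higher in small intestine by 1.25 ± 0.30 (limma adjusted p = 0.00246), at 0.11 and -0.25. That call was lost without small intestine replicate 1 (1.07, adjusted p = 0.0749), with median centring (0.97, adjusted p = 0.0516) and with slide as a random block (0.84). Adsl, the lyase that acts after adenylosuccinate synthase and at an earlier step of purine synthesis, Atic, which makes inosine monophosphate, and the ribonucleotide reductase subunit Rrm1 were not called in either tissue. The calls of Ahcy, Ahcyl2, Adora2b, Urah and Adss1 in small intestine held under every alternative run over the 15 tissues. A stricter filter (well above background on both arrays of 5 tissues) removed Alpi and Alppl2.

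**Figure D4:**
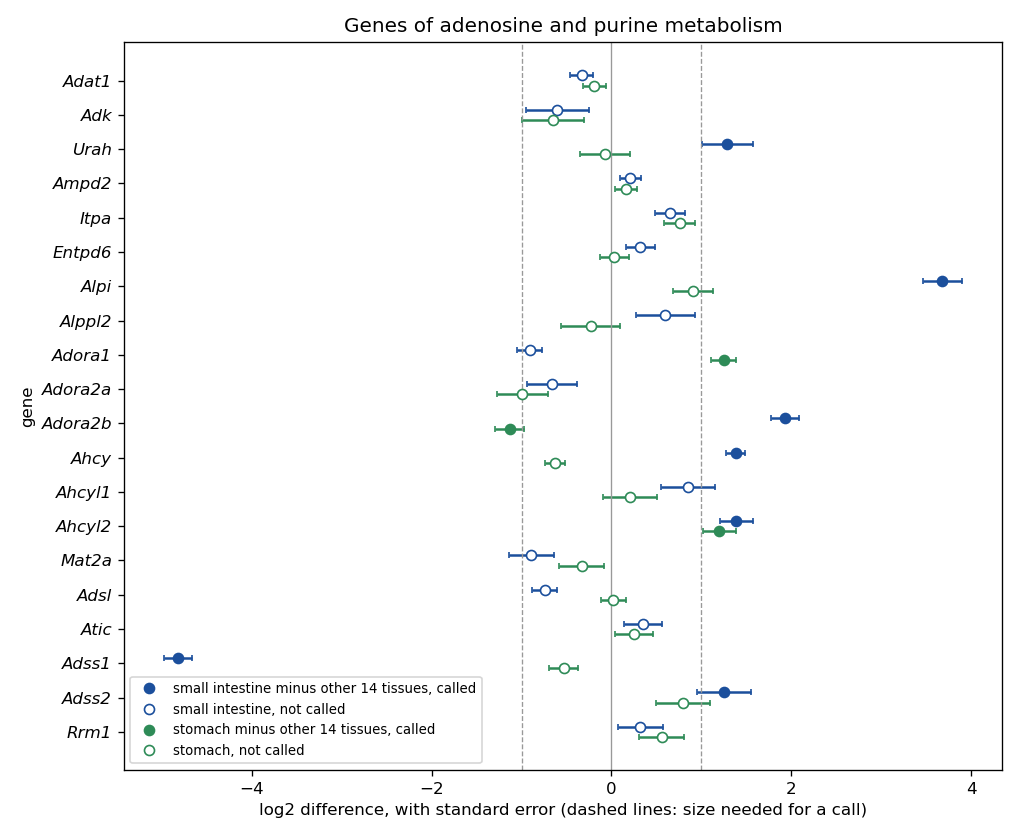
Difference of small intestine (blue) and of stomach (green) from the mean of the other 14 tissues, in log2, for the 20 purine genes past the filter, with standard errors as bars and filled points for calls. Alpi (3.68) and Adss1 (-4.82) in small intestine lie farthest from 0, and Adora2b lies on opposite sides in the 2 tissues.

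The genes whose 15 tissue means followed Ada most closely were also highest in the gut. Among 5048 probes with a symbol, the 10 highest Pearson r belonged to Igsf23 (0.94), Plut (0.93), Fzd5, 2210009P08Rik, Htr2b and Zg16 (each 0.92), Lypd8 (0.90), Phgr1 (0.89), Rnpep and Lta4h (each 0.88). These are descriptions over 15 points that share arrays and reference, and 8 of the 10 genes were well above background on 6 to 19 of the 30 arrays only. Of all 21018 probes compared, 36 had an r over 0.9 (0.171%), and the median was -0.06. Leaving out small intestine, the r of the 10 lay between 0.75 for Lta4h and 0.90 for 2210009P08Rik.

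Within this group the 3 gut tissues were ordered differently. Igsf23, of the immunoglobulin superfamily, had means of 3.23 in small intestine, 1.16 in stomach and 1.37 in large intestine, and Fzd5, a receptor for Wnt proteins, had 2.36, 1.65 and 1.65. Plut, listed there as 2210019I11Rik, kept the order of Ada, with 3.54, 2.69 and 1.12. Zg16, a lectin-like protein of goblet cells, had 4.32, 3.88 and 4.34, Lypd8, which keeps bacteria from the mucosa, 6.37, 6.16 and 6.32, and Phgr1 8.42, 7.60 and 8.63. 2210009P08Rik had 5.92, 6.07 and 4.74, the last from large intestine arrays at 5.77 and 3.71. For the serotonin receptor Htr2b, at 1.76 in small intestine and 1.45 in stomach, the large intestine arrays read 2.20 and 0.48, and replicate 2 was thus below the lung mean of 0.78. Lta4h, which makes leukotriene B4, was at 2.16 in small intestine but at 0.12 in stomach, below bladder (0.19), and the aminopeptidase Rnpep was at 1.86, 1.56 and 1.66, with large intestine arrays at 1.14 and 2.17. Alpi had an r of 0.87 with Ada, and the other purine genes lay between -0.54 (Adss1) and 0.67 (Akp3).

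**Figure D5:**
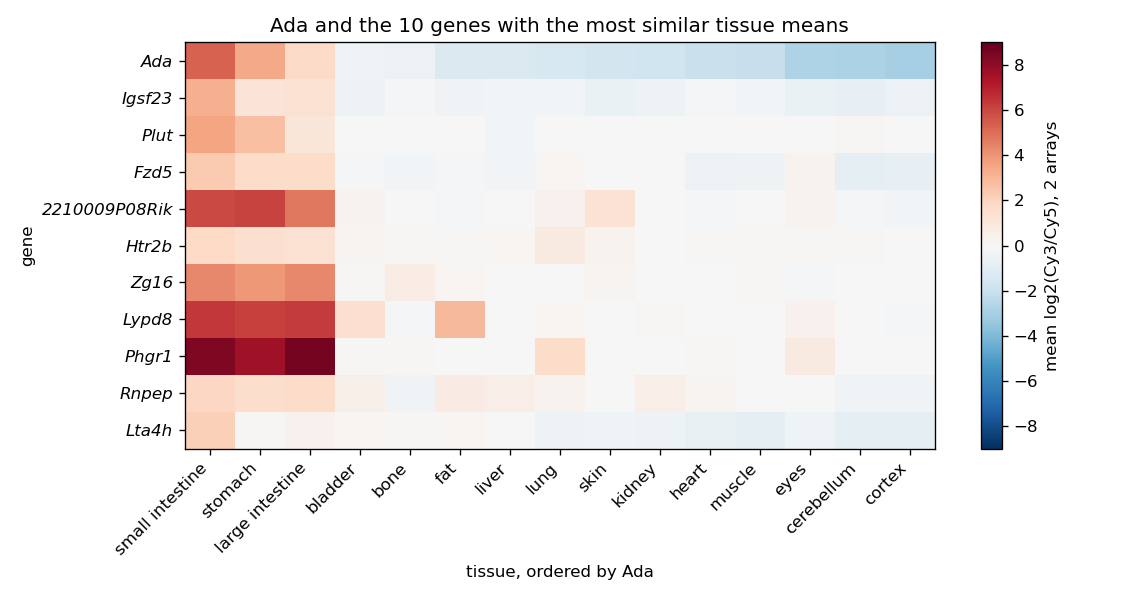
Mean log2 ratio of 2 arrays per tissue for Ada and the 10 genes with the most similar tissue means among probes with a symbol. Tissues are ordered by Ada from left to right, and colour runs from blue (negative) to red (positive). The 3 gut tissues are red for nearly all genes, and from bladder to cortex Ada falls from -0.36 to -2.96 and Lta4h from 0.19 to -0.82.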

How the data were processed

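The authors hybridised Cy3-labelled tissue RNA and Cy5-labelled reference RNA to 2-colour Agilent oligonucleotide arrays and extracted spots with Feature Extraction 9.5.1.1. The deposited files hold each spot's mean signal and local background as an intensity, the authors' log10 ratio of Cy5 over Cy3, and spot flags (values of another kind). The authors' value table is on a log10 scale and followed the processed Cy3 level adjusted for the reference (R squared 0.9999 over 11596 probes).

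Background was corrected by normexp (offset 50). Spots flagged as outliers (475, 0.0377%) were left out, none was saturated, and arrays were normalised by loess. Probes of the value table were kept when both arrays of 1 or more tissues had Cy3 well above background (21019). Linear models used limma 3.58.1 (R 4.3.3) with a coefficient for each tissue, Benjamini-Hochberg adjustment and two-sided tests. They were tested on simulated data with independent arrays. The main models took arrays as independent, also those that shared a slide. With slide as a random block the correlation within slides was 0.693. Both stomach arrays lay on slide 8, so the spread between them leaves out differences between slides. The number of arrays limits the precision. Names came from the study's probe lists, updated through GRCm38.p6 gene tables. The text names both Ada probes, purine genes with a probe (the brightest in the table) and the 10 symbols most like Ada. Members and lists were chosen with earlier results of these data known.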

Additional observations from a re-analysis of the deposited data

How the results depend on the processing

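The lead of Ada in small intestine over the other 14 tissues (6.45) was 5.89 with median centring, 6.67 on the Cy3 level alone, 6.74 with a normexp offset of 16, 6.71 with the scanner's log ratio, 6.71 in the authors' value table and 7.07 without large intestine and stomach in the comparison. Its information (2.34 bits) was 2.11 with median centring and 2.49 on Cy3 alone. Small intestine minus stomach (1.91) was 1.57 with median centring and 2.24 on Cy3 alone. Stomach minus large intestine (1.68) was 1.94 and large intestine minus bladder (2.08) was 1.19 with median centring. For the second probe, Cy3 alone was an alternative chosen after seeing the data, with a lead of 6.88 in place of 4.64. Leaving out each array in turn gave 6.29 to 6.62 for the lead, 2.26 to 2.42 bits, 1.67 to 2.16, 1.32 to 2.04 and 1.72 to 2.44 for these differences.

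Of the purine genes, 19 differed among tissues and 6 were higher in small intestine in the main fit. Without small intestine replicate 2, 21 in place of 20 genes passed the filter. The added gene was Akp3, which was well above background on small intestine replicate 1 alone (1.00), so that fit gives no count for it here. With median centring and with the stricter filter 18 differed among tissues and 5 were higher in small intestine. That second count (6) was 5 with slide as a random block and 8 with offset 16, the scanner's log ratio, the authors' table and at an adjusted p alone. The count lower in small intestine (1) was 2 with median centring, Cy3 alone, the scanner's log ratio and the authors' table, 3 with slide as a random block and 5 at an adjusted p alone, and stayed at 1 when arrays were left out. In stomach the count higher (2) was 1 with median centring and with slide as a random block, 5 at an adjusted p alone, and 2 to 3 without single arrays. The count lower in stomach (1) was 0 on Cy3 alone, 2 with offset 16, the scanner's log ratio and the authors' table, 3 with slide as a random block and without the other gut tissues, 4 at an adjusted p alone, and 0 to 2 without single arrays, with 0 without stomach replicate 1 and 2 without lung replicate 2, heart replicate 2, fat replicate 1 or bone replicate 2. Calls over all probes moved too, and the cause was not tested. Of 1636 single-gene values under the alternatives, 9 lost and 29 gained a call and no called value (0) reversed. Over all probes, 53.5% of the calls in small intestine were higher, and 41.7% with median centring.

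The replicate number did not pair the arrays (correlations of the deviations of -0.25 to 0.34 over 105 pairs of tissues, 32 over 0.1). With the replicate block the lead of Ada was 6.45 and the purine counts were 19, 6, 1, 2 and 1, with no call changed. Slide as a fixed block could not be fitted over 15 tissues, since slides do not link them all. An alternative chosen after seeing the data used the 7 tissues that slides link. There the lead of Ada was 5.38 without and 5.15 with the block, and the purine counts went from 7 to 5 higher and from 2 to 4 lower in small intestine, and from 1 to 3 lower in stomach, with 2 higher in both fits.

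Each tissue has 2 arrays, all with the same dye orientation, so a dye effect of a probe cannot be told apart from its ratio to the reference. Differences between tissues share that orientation. Signals near background limit the dim side of Alpi, Sis and most genes that followed Ada, and 52 purine genes had no named probe.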
